A study of Mus musculus with 2 samples.

Results

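The cells described here were 126 hematopoietic progenitors from cultured mouse embryos with the highest levels of neutrophil granule genes. They were chosen by their own counts. Of 3071 filtered cells of the embryo explants, 379 had *Cpa3* under 20 UMIs per 10000, *Hba-a1* under 5 UMIs and at least 5 UMIs of *Mpo*, *Prtn3*, *Ramp1*, *Mycn* and *Hoxa9* together. These 379 are called gated cells. They were ranked by the sum of *Mpo*, *Prtn3*, *Elane* and *Ctsg* per 10000 UMIs, called the granule score, and the 126 cells with the highest scores are called high-granule cells. The other 253 gated cells, of which 126 had middle and 127 the lowest scores, were the comparison. The high-granule cells made up 4.10% of the filtered cells of their library (exact 95% Clopper-Pearson interval 3.43% to 4.87%). Both libraries together held 5158 filtered cells.

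The study asked which part of the early mouse conceptus yields definitive hematopoietic stem cells (dHSC) when it is cultured apart from the rest. Intraembryonic tissue (Em-Ex) and yolk sac (YS-Ex) of C57/BL6 concepti at E8.5, Theiler stage 12, with 5 to 7 somite pairs, were grown apart from each other where air and liquid meet, for 9 to 10 days. Both received SCF, IL-3 and FLT3 ligand at 100 ng/ml, and both were sorted for CD31+CD45+c-Kit+CD41− cells. Each condition was 1 droplet library of pooled explants, in which a unique molecular identifier (UMI) stands for 1 captured transcript.

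With 1 library per condition and cells from a single library, there were no replicates, and no test was run. Levels are pooled UMIs of a gene per 1000000 UMIs of the group (CPM). Every interval is an exact 95% interval and covers counting error only. A gene is called higher or lower where its pooled level in the high-granule cells was at least 2-fold above or below that in the other gated cells. All such values come from the cells that the score sorted, so they describe the high-granule cells and are not independent of their choice.

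Neutrophils carry proteins in granules that form in a fixed order as the cell matures. The first, the primary or azurophil granules, are filled at the promyelocyte stage with myeloperoxidase and a family of serine proteases, while the specific and gelatinase granules follow later with another set of proteins. Transcription of the primary granule genes is known to depend on PU.1, C/EBP factors and MYB, and their products are folded in the endoplasmic reticulum before they are packed.

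The genes of the score lie at 3 loci. *Mpo* (ENSMUSG00000009350, chr11:87793581-87804413, plus strand, GENCODE vM21 on GRCm38, the same assembly as the mm10 build of the counts) encodes myeloperoxidase. *Prtn3* (proteinase 3, ENSMUSG00000057729, chr10:79874476-79883174) and *Elane* (neutrophil elastase, ENSMUSG00000020125, chr10:79886247-79888215) lie 3072 bases apart on the plus strand. *Ctsg* (cathepsin G, ENSMUSG00000040314, chr14:56099881-56102574) is on the minus strand. The stretches around the annotated starts of the 3 protease genes are shown because these genes are part of the score. Each run has 120 bases of RefSeq sequence (GRCm38.p6), written 5′ to 3′ on the gene's strand. Those of *Prtn3* and *Elane* end 30 bases inside an annotated exon, and that of *Ctsg* ends at the base before its first exon. The *Prtn3* run lies inside the gene span given above, and the MYB-type match of *Elane* lies past the start of its span. Capitals mark matches to a PU.1-type motif (GAGGAA) and to a MYB-type motif (CAACNG or TAACNG), on either strand.
*Prtn3*, chr10:79879524-79879643, plus strand: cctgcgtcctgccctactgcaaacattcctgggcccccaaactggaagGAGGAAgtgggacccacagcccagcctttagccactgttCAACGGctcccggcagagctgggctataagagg
*Elane*, chr10:79886157-79886276, plus strand: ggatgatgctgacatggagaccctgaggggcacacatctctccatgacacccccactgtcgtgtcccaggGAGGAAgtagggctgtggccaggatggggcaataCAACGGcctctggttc
*Ctsg*, chr14:56102575-56102694, minus strand: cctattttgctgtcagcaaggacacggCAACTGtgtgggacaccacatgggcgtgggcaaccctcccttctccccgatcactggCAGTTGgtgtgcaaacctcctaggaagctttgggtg

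*Prtn3* and *Elane* shared an arrangement of letters. In *Prtn3* the PU.1-type match began at base 49 and the MYB-type match at base 88 of the run, and in *Elane* they began at bases 71 and 105. *Ctsg* had 2 MYB-type matches, at bases 28 and 85, and none of the PU.1 type. A C/EBP-type motif (TT, any 2 bases, G, any base, AA) was in none of the 3 runs. Among 32851 RefSeq windows of the same length that end at the base before the start, 11.6% held the PU.1-type motif, 23.6% the MYB-type motif, 2.52% both and 18% the C/EBP-type motif. The *Ctsg* run is placed in that way, while those of *Prtn3* and *Elane* end 24 and 36 bases before the RefSeq start. In their own windows ending at the base before the start, *Prtn3* had 1 PU.1-type and 1 MYB-type match, *Elane* had 1 and 2, and neither had the C/EBP type. A match describes letters and not a bound site.

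The granule score fell along a continuous curve with no gap at its limit. The high-granule cells had scores of 13.9 to 167 with a median of 30.8 UMIs per 10000, and the other gated cells had scores of 0 to 13.8 with a median of 2.96. The lowest cell inside had 13.86 and the highest outside 13.81, with 9 high-granule cells less than 10% above the limit and 14 other cells less than 10% below it. A score is therefore a range and not a cell type. The 4 genes gave 0.371% of all UMIs of the high-granule cells and 0.0443% of those of the other gated cells.

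**Figure D1:**
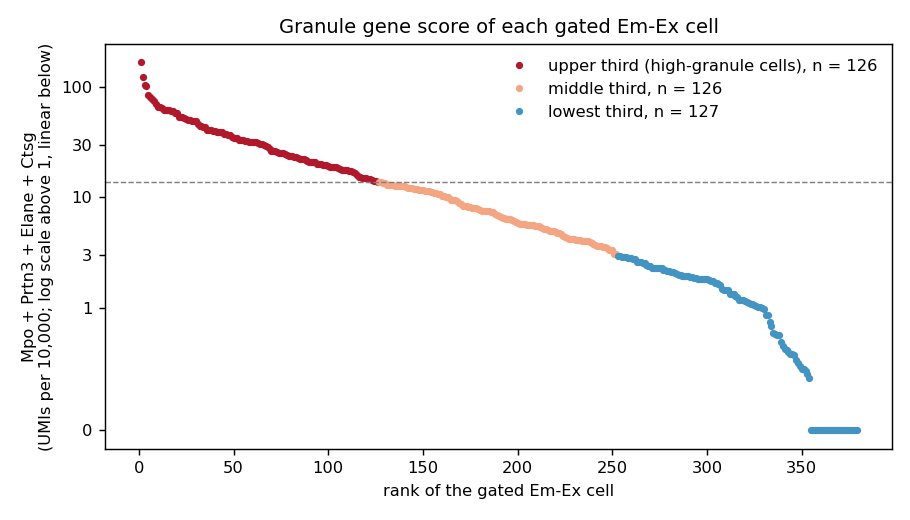
Granule score (sum of Mpo, Prtn3, Elane and Ctsg, UMIs per 10,000) of the 379 gated Em-Ex cells in falling order, each point a cell and the dashed line the lowest score of the 126 high-granule cells. The scores fall without a gap from 167 to 0, and 25 cells at the right end had no UMI of any of the 4 genes.

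*Mpo* and *Prtn3* carried the score. Per 10000 UMIs, *Mpo* ranged from 0 over a median of 12.9 to 52.0 in the high-granule cells, and *Prtn3* from 2.29 over 16.3 to 76.5. In the middle cells the medians were 2.62 for *Mpo* and 4.18 for *Prtn3*, and in the lowest cells they were 0 and 0.665. Pooled, *Mpo* was at 1455 CPM against 169 CPM in the other gated cells, and *Prtn3* at 1957 CPM against 273 CPM. A score from *Mpo* and *Prtn3* alone chose the same 126 cells.

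*Elane* and *Ctsg* were seen in a minority of the high-granule cells. *Elane* had a UMI in 33 of 126 (26.2%, 18.8% to 34.8%) and *Ctsg* in 37 of 126 (29.4%, 21.6% to 38.1%). In the other gated cells *Elane* had a UMI in 10 of 253 (3.95%) and *Ctsg* in 1 of 253 (0.395%). Of the 2430 Em-Ex cells with *Cpa3*, a mast cell gene, at or over the limit, 0.658% had an *Elane* UMI and 0.947% a *Ctsg* UMI. Whether these UMIs came from free RNA was not tested. The granule scores of these high-*Cpa3* cells reached 46.4. Their median depth was 11342 UMIs, against 25174 in the high-granule cells and 20544 in the other gated cells. With every cell thinned to 4000 UMIs, which left out 0 cells, the shares with *Elane* were 11.1% (high-granule), 0.791% (other gated) and 0.165% (high *Cpa3*), and those with *Ctsg* were 15.9%, 0.395% and 0.453%. Both genes are part of the score, so these shares are a description of the cells chosen.

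The levels of *Elane* were uneven between cells. Pooled, *Elane* was at 176 CPM in the high-granule cells (162 to 192) and 1.92 CPM in the others. A single cell held 229 of its 557 UMIs (41.1%), and without that cell the level was 105 CPM. *Ctsg* was at 122 CPM (110 to 135) from 385 UMIs, of which the highest cell held 57, against 1 UMI in the other gated cells, a ratio of 634 with a counting interval of 113 to 25104. Only 19 of the 126 cells had a UMI of all 4 genes. Across the 126 cells, which share a library and differ in depth, Spearman's rho between pairs of the 4 genes lay between 0.274 (*Mpo* and *Ctsg*) and 0.483 (*Prtn3* and *Elane*). To read levels in counts outside the score, each cell's UMIs were split at random into equal parts, with the score from one part and the levels from the other. *Mpo* was then 7.86-fold (7.11 to 8.69), *Prtn3* 6.96-fold (6.42 to 7.55) and *Elane* 55.5-fold (27.8 to 130) higher in the cells chosen. The gate still used all UMIs, *Mpo* and *Prtn3* included, so these values remain a description.

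The other genes of the rule were not part of the score. *Ramp1*, a receptor activity modifying protein, was at 159 CPM in the high-granule cells and 99.2 CPM in the others. The transcription factor genes *Mycn* and *Hoxa9*, both active in early progenitors, were at 50.6 against 148 CPM and 29.7 against 77.5 CPM. The gate sum counts *Ramp1*, *Mycn* and *Hoxa9*, so cells with little *Mpo* and *Prtn3* passed only through them, and their levels are not independent of the gate. *Cpa3* was at 179 and 199 CPM, far under the 11942 CPM of the cells at or over its limit.

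Outside the 9 genes of the rule, 4681 genes reached 20 CPM over all gated cells. Of these, 26 (0.555%) were at least 2-fold higher in the high-granule cells and 79 (1.69%) at least 2-fold lower, and 93.2% lay within 1.5-fold in either direction. Counts of called genes in the groups of genes below are to be read beside these 2 shares of called genes. The median log2 ratio over all genes tested was -0.04. The interval lay wholly past 2-fold for 15 of the higher and 39 of the lower genes. All 26 higher genes were ordered with the middle cells between the lowest and the high-granule cells, as were 69 of the 79 lower genes.

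**Figure D2:**
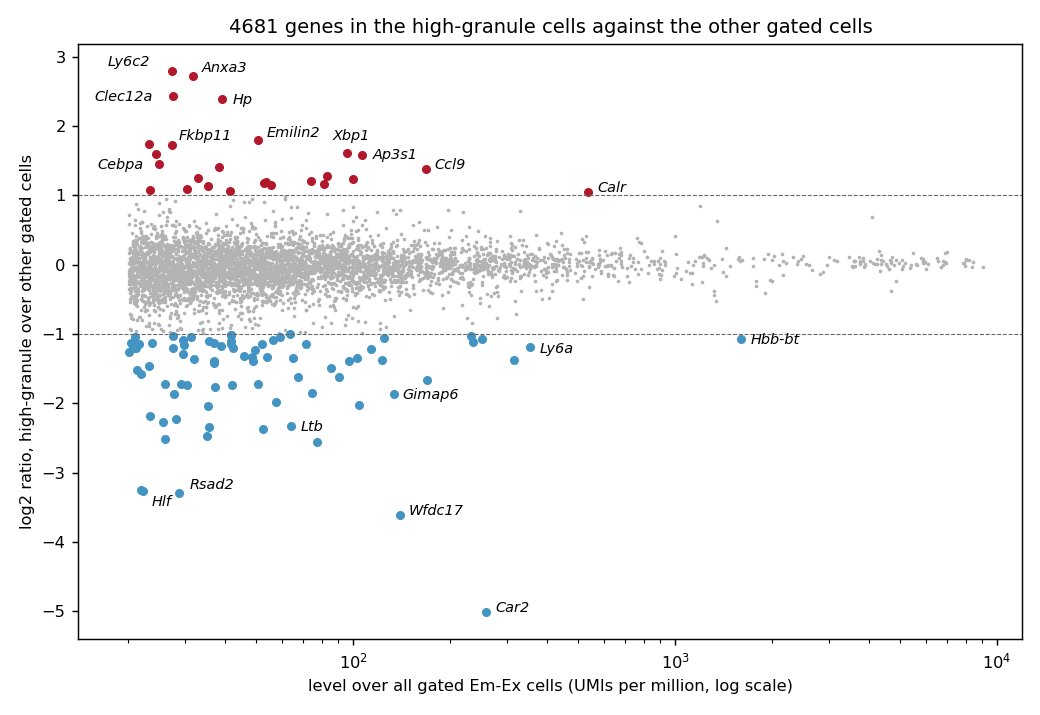
Level over all gated Em-Ex cells (CPM, log scale) against the log2 ratio of the high-granule cells to the other gated cells for 4681 genes, without the 9 genes of the rule; red and blue points passed 2-fold and dashed lines mark it. The 26 higher genes reach a log2 ratio of 2.79 and the 79 lower genes reach -5.01 (Car2).

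Genes of primary granules and of early neutrophil progenitors made up the largest group among the higher genes. Of 22 listed genes besides those of the score, 18 were in the table and 13 reached 20 CPM. Of the 13, 7 were higher (0.555% of all genes tested were) and 0 lower, with a median log2 ratio of 1.15. The 7 were *Anxa3*, *Clec12a*, *Hp*, *Mgst1*, *Cst7*, *Rgcc* and *Nkg7*. The list was written with earlier results of these data known, so its counts are a description. The summed level of the 18 was 2763 against 1527 CPM, and 3491.5 CPM in the high-*Cpa3* cells. *Lyz2*, the lysozyme gene, was the one member with a ratio under 1, at 85.4 against 114 CPM, but 1 cell of each group held 35.9% and 37.7% of its UMIs. Its log2 ratio of -0.41 was 0.27 without the other gated cell alone and -0.37 without both cells.

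*Anxa3*, an annexin of neutrophil granules, had 0 to 12 UMIs per high-granule cell with a median of 1, and 0 to 4 with a median of 0 in the other gated cells. Its pooled level was 67.4 against 10.2 CPM, 6.62-fold higher (4.88 to 9.12). It had a UMI in 61.9% of the high-granule cells, 14.2% of the others and 3.09% of the high-*Cpa3* cells, and at 4000 UMIs per cell in 19.8%, 5.93% and 1.11%. *Hp* encodes haptoglobin, which binds free hemoglobin. It had 0 to 28 UMIs per cell with a median of 0 in either group, and a UMI in 57 of 126 high-granule cells against 18 of 253 others. Pooled it was at 78.8 against 14.99 CPM, 5.26-fold higher (4.06 to 6.87), with 29.2 CPM in the middle and 1.14 CPM in the lowest cells. *Clec12a*, an inhibitory C-type lectin receptor of myeloid cells, was at 56.0 against 10.4 CPM (5.40-fold, 3.96 to 7.46) and had a UMI in 63 of 126 high-granule and 26 of 253 other cells.

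Other members had smaller ratios. *Cst7*, the cathepsin inhibitor cystatin F, was at 131 against 53.8 CPM (2.43-fold, 2.09 to 2.84). *Mgst1*, a microsomal glutathione transferase, was at 62.7 against 23.6 CPM (2.65-fold, 2.11 to 3.35). *Plac8*, a gene of myeloid progenitors at a high level, was at 1648 against 922 CPM, a ratio of 1.79 (1.72 to 1.86) that did not reach 2-fold. *Serpinb1a*, an inhibitor of neutrophil serine proteases, had a ratio of 1.49 (1.30 to 1.70), and *Ctsc*, the peptidase that activates these proteases, of 1.48 (1.21 to 1.80). Listed members under 20 CPM over all gated cells included *Clec5a* (25.9 against 4.42 CPM), *Dmkn* (14.9 against 0.961 CPM) and *Prss57* (10.1 against 3.65 CPM).

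Few genes of the later granules were listed in the table. Of 16 genes of specific and gelatinase granules, 6 were in the table, and *Ltf*, *Camp*, *Ngp*, *Lcn2*, *Mmp9* and *Chil3*, defining genes of these granules, were not among them. In each library a gene of the table had UMIs in at least 30 barcodes or in none, so a gene seen in fewer cells is not listed. Of the 3 that reached 20 CPM, 0 were higher and 1 was lower. That gene, *S100a9*, was at 39.9 against 113 CPM, but 1 of the other gated cells held 98.8% of its UMIs in that group and 1 high-granule cell held 95.2% of those in the other. Its log2 ratio of -1.498 was 4.89 without the first of these cells alone and 0.51 without both, at 1.91 against 1.35 CPM. For *S100a8*, 1 high-granule cell held 95.7% and 1 other gated cell 95.5% of the UMIs of its group. *Mmp8*, a collagenase of these granules, was at 12.0 against 0.961 CPM, with 39.5% of its UMIs in 1 high-granule cell and 60% in 1 other gated cell, and it was at 7.33 against 0.387 CPM without both cells.

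Chaperones and enzymes of the endoplasmic reticulum mostly had ratios over 1, of which few passed 2-fold. All 16 of the 17 listed genes that reached 20 CPM had a ratio over 1, for 15 the interval lay over 1, and 3 passed 2-fold, with a median log2 ratio of 0.47. Their summed level was 3797 against 2469 CPM, a ratio of 1.54 (1.4999 to 1.58). Per 10000 UMIs the sum ranged from 14.8 over a median of 35.0 to 107 in the high-granule cells and from 11.5 over 22.7 to 66.9 in the others. The 2 ranges overlapped. In the middle and lowest cells the summed levels were 2556 and 2384 CPM, close to each other, and in the high-*Cpa3* cells 4157 CPM.

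*Xbp1*, the transcription factor of the unfolded protein response, was at 164 against 53.6 CPM, 3.06-fold higher (2.64 to 3.56), with 0 to 25 UMIs and a median of 3 per high-granule cell against 0 to 14 and a median of 1. *Calr*, the calcium-binding chaperone calreticulin, was at 790 against 382 CPM (2.07-fold, 1.95 to 2.194) with medians of 17 and 7 UMIs per cell, a call that fell under 2-fold in 6 of 20 other settings (log2 ratios from 0.49 to 1.23). *Sdf2l1* was at 155 against 66.3 CPM (2.34-fold, 2.04 to 2.70). *Hspa5*, *P4hb* and *Pdia6*, the main chaperone and 2 disulfide isomerases, had ratios of 1.70, 1.72 and 1.73, and *Pdia3* one of 1.03. *Fkbp11* and *Ppic*, prolyl isomerases of the same compartment outside the list, were at 48.1 against 14.6 CPM and 61.4 against 29.4 CPM. *Calr* has an annotated pseudogene, with which reads could be shared.

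**Figure D3:**
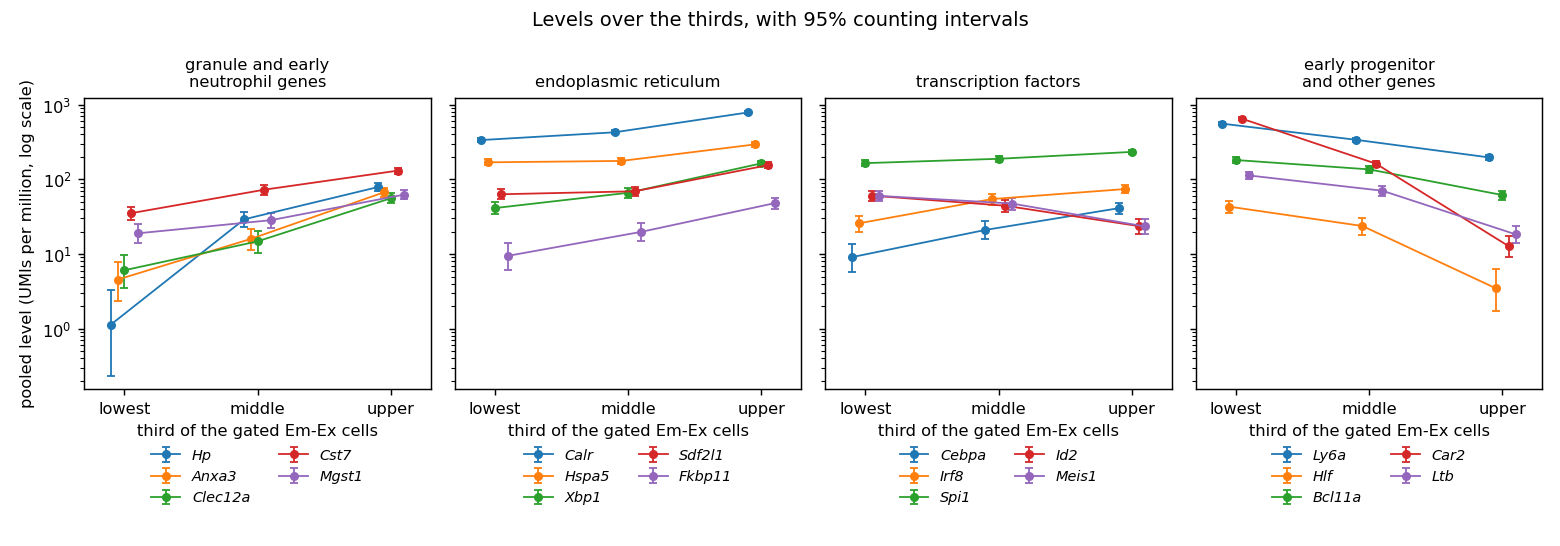
Pooled levels (CPM, log scale) in the lowest (127 cells), middle (126 cells) and upper (126 cells) group of the gated Em-Ex cells by granule score, with exact Poisson 95% intervals. Granule genes such as Hp (1.14, 29.2 and 78.8) increase over all 3, chaperone genes such as Hspa5 (170, 177 and 294) differ mainly in the upper one, and Car2 (648, 163 and 12.7) and Hlf decrease.

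The machinery that sorts cargo to granules, activates the proteases and inhibits them had ratios closer to 1. Of 17 listed genes, 8 reached 20 CPM with 0 higher and 0 lower and a median log2 ratio of 0.24. *Srgn*, the proteoglycan core that holds granule proteins, was at 444 and 428 CPM. *Stfa1*, a stefin inhibitor of cathepsins, was at 88.3 against 44.8 CPM, but 1 cell of each group held 71.7% and 80.7% of its UMIs, and without both cells it was at 25.2 against 8.66 CPM. Its log2 ratio of 0.98 was -0.83 without the high-granule cell alone and 1.54 without both. *Ap3s1*, the small subunit of the AP-3 adaptor that sorts cargo to lysosome-related organelles, was 2.98-fold higher (2.59 to 3.43) at 182 against 60.9 CPM. It was named as one of the 15 largest ratios, and it has 2 annotated pseudogenes with which reads could be shared. The other subunits that reached 20 CPM, *Ap3b1* and *Ap3s2*, had ratios of 1.01 (0.793 to 1.29) and 0.867 (0.638 to 1.17).

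Myeloperoxidase needs heme, and the phagocyte oxidase supplies its substrate. Of 9 heme synthesis enzymes, 4 reached 20 CPM with 0 called. *Alas1*, the housekeeping enzyme of the first step, was at 39.6 against 20.9 CPM (1.89-fold, 1.45 to 2.46), while *Alas2*, its erythroid form, had 0 UMIs in the high-granule cells and 1 in the others. *Alad* and *Urod* had ratios of 0.955 and 0.916. Of 6 subunits of the NADPH oxidase, 5 reached 20 CPM with 0 called, and *Ncf1* had a ratio of 1.44 (1.18 to 1.76).

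Among myeloid transcription factors, 12 of 18 listed genes reached 20 CPM, with 1 higher, 1 lower and a median log2 ratio of 0.39. *Cebpa*, the factor required for the granulocyte and monocyte path, was at 41.1 against 14.99 CPM (2.74-fold, 2.06 to 3.68). *Id2*, an inhibitor of basic helix-loop-helix factors, was at 23.7 against 52.7 CPM (ratio 0.451). *Irf8*, a factor of monocytes and dendritic cells, was at 74.4 against 39.975 CPM (1.86-fold, 1.54 to 2.25). *Spi1*, which encodes PU.1, was at 234 against 177 CPM (1.32-fold), *Myb* at 88.0 against 72.8 CPM (1.21-fold) and *Gfi1*, a repressor needed by granulocytes, at 14.2 against 9.80 CPM, under the minimum. Of 13 factors of the erythroid, megakaryocyte and mast lineages, 7 reached 20 CPM with 0 called and a median log2 ratio of -0.33. *Gfi1b*, an erythroid and megakaryocyte factor under the minimum, was at 5.70 against 20.0 CPM.

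Genes of early progenitors were mostly at lower levels. Cells with little *Mpo* and *Prtn3* passed the gate only through *Ramp1*, *Mycn* and *Hoxa9*, so the comparison depends on the gate. How far the gate sets these levels was not tested. Of 32 listed genes, 30 were in the table and 21 reached 20 CPM. Of these, 0 were higher and 7 lower (1.69% of all genes tested were lower). Among the 21, 18 had a ratio under 1, and the median log2 ratio was -0.42. The summed level was 1698 against 2434 CPM, a ratio of 0.698 (0.676 to 0.720). Per 10000 UMIs the sum ranged from 1.91 over a median of 16.4 to 42.2 in the high-granule cells and from 1.16 over 24.1 to 78.5 in the others, so the groups overlapped.

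*Hlf*, a factor of hematopoietic stem cells, had at most 1 UMI per high-granule cell and 0 to 10 per other cell. Its pooled level was 3.48 against 33.6 CPM (9.66-fold lower, 5.27 to 19.7). It had a UMI in 11 of 126 high-granule and 77 of 253 other cells. The 10% of other gated cells with most *Hlf* held 60.6% of its UMIs there. *Ly6a*, the gene of Sca-1, had 0 to 71 UMIs with a median of 1 in the high-granule cells and 0 to 63 with a median of 5 in the others, and was at 197 against 450 CPM (2.28-fold lower, 2.09 to 2.5). *Adgrl4* was at 3.48 against 33.1 CPM, *Meis1* at 23.4 against 54.0 CPM, *Msi2* at 25.0 against 62.8 CPM, *Bcl11a* at 61.7 against 160 CPM and *Eng* at 19.0 against 39.0 CPM. *Hmga2*, a gene of fetal stem cells, was at 366 against 323 CPM, a ratio of 1.14 (1.05 to 1.22). *Procr* and *Mecom*, both under the minimum, were at 0.949 against 5.77 and 0.633 against 6.53 CPM. *Cd34* and *Kit* had ratios of 0.746 and 0.721.

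The largest difference of any gene tested was that of *Car2*, which encodes carbonic anhydrase 2. It had 0 to 4 UMIs per high-granule cell with a median of 0 and 0 to 170 with a median of 2 in the others, and was at 12.7 against 409 CPM (32.3-fold lower, 23.6 to 45.3). It was uneven among the other gated cells, where the 10% of cells with most *Car2* held 58.4% of its UMIs. At 4000 UMIs per cell it had a UMI in 1.59% of the high-granule cells, 47.0% of the others and 9.18% of the high-*Cpa3* cells. The share in the high-granule cells was the lowest of the 3. *Wfdc17* was next, at 17.4 against 214 CPM (12.3-fold lower, 9.37 to 16.4), with like levels in the middle and lowest cells (215 and 213 CPM).

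Others of the 15 smallest ratios were *Rsad2* (4.43 against 43.4 CPM), *Igf1* (6.65 against 37.9 CPM), *Hoxa5* (9.18 against 50.9 CPM), *Ccl4* (14.6 against 75.5 CPM), *Gsn* (10.1 against 51.3 CPM), *Sla2* (7.59 against 36.7 CPM), *Cnrip1* (8.54 against 40.2 CPM), *Gng11* (7.28 against 33.1 CPM) and *Tnni2* (12.0 against 49.4 CPM). They encode an antiviral enzyme, a growth factor, a homeobox factor, a chemokine, an actin-severing protein and an adaptor of the T cell receptor, among others. For *Ccl4*, 1 of the other gated cells held 29.01% of the UMIs.

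Others of the 15 largest ratios were *Ly6c2*, *Emilin2*, *Clec4d*, *Fkbp11*, *F630028O10Rik*, *Ccl9* and *Anxa2*. *Ly6c2*, the gene of the monocyte and granulocyte progenitor antigen Ly6C, had the largest ratio of all, 6.92 (4.96 to 9.85) at 58.5 against 8.46 CPM. It had a UMI in 24 of 126 high-granule cells, 1 of which held 47.0% of its UMIs, and 1 of the other gated cells held 61.4% of those in that group. Its log2 ratio of 2.79 was 1.89 without the high-granule cell alone and 3.25 without both. *Ccl9*, a chemokine of myeloid cells, was at 272 against 105 CPM, *Emilin2* at 90.5 against 26.1 CPM and *Clec4d* at 41.1 against 12.3 CPM. *Emilin2* was also at 195 CPM in the high-*Cpa3* cells.

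Genes next to those of the score were read in windows of 200 kb on either side. Around *Elane* and *Prtn3*, 20 of 30 protein-coding genes were in the table and 11 were tested, with 1 higher and 0 lower. That gene was *Plppr3*, which runs from the opposite strand and shares 159 annotated bases with *Prtn3* at their 5′ ends. It was at 114 against 49.6 CPM (2.3-fold, 1.96 to 2.71). Around *Mpo*, 2 genes were tested and 0 were called. *Ctsg* lies in the chymase locus, where 3 of 4 genes tested were lower (1.69% of all genes tested were). The 3 were *Mcpt1* (17.1 against 57.1 CPM), *Mcpt2* (27.8 against 70.0 CPM) and *Mcpt4* (10.8 against 35.4 CPM). *Cma1* had a ratio of 0.691 (0.635 to 0.752). These 4 mast cell proteases are alike in sequence and were at 628, 693, 981 and 15981 CPM in the high-*Cpa3* cells. In the other gated cells the cell with most *Mcpt1* held 34.7% of its UMIs and the cell with most *Mcpt2* held 38.7%, beside 35.2% and 20.5% in 1 high-granule cell each. The log2 ratios of -1.74 and -1.33 were -1.13 and -0.63 without the other gated cell alone, and -1.75 and -0.95 without both cells, so *Mcpt2* was then under 2-fold.

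Genes of other blood lineages were mostly at low levels in the high-granule cells. The gate limited *Cpa3* and *Hba-a1*, so low levels of mast cell and erythroid genes are not independent of the rule. Of 14 mast cell genes, 6 were tested, with 0 higher and 3 lower (the *Mcpt* genes above). Their sum was at 470 CPM against 760 CPM in the other gated cells and 28860 CPM in the high-*Cpa3* cells, which were chosen by a mast cell gene. Per 10000 UMIs the median of the sum was 4.08 in the high-granule cells and 3.90 in the others. The highest cells had 38.1 and 272. *Fcer1a* and *Ms4a2*, which encode chains of the IgE receptor, were at 0.316 and 1.58 CPM. Of 12 measured lymphoid genes, 3 were tested and 1 was lower, *Ltb*, at 18.4 against 92.1 CPM. *Il7r*, *Ebf1* and *Dntt*, under the minimum, were at 1.58 against 12.3, 3.797 against 25.8 and 0.633 against 4.80 CPM, and the lymphoid sum had a ratio of 0.365 (0.321 to 0.415). Of 11 measured erythroid genes, 3 were tested and 2 were lower, *Car2* and *Hbb-bt*, an adult beta globin gene with a near copy in *Hbb-bs*, at 952 against 2004 CPM.

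Of 14 monocyte genes, 3 were tested, with *Ly6c2* higher and 0 lower. *S100a4*, the 1 tested gene with a ratio under 1, had a log2 ratio of -0.93, with its interval under 1. *Ccr2*, *Csf1r*, *Ms4a6c* and *Ly86*, under the minimum, had ratios of 2.18, 2.03, 2.32 and 2.08, and *Fn1* had 0 UMIs in the high-granule cells. Of 10 measured macrophage genes and 7 dendritic cell genes, 2 each were tested with 0 called. *C1qa*, *C1qb* and *C1qc* were at 1.27 to 2.85 CPM. Megakaryocyte genes (3 of 9 tested) had 0 called, and of the endothelial genes the only one tested, *Egfl7*, had a ratio of 0.589. Basophil genes (3 of 8 tested) had 1 lower, *Ccl4*, while *Mcpt8* and *Prss34*, which define the lineage, were at 2.53 and 0.316 CPM. *Ifitm1* of that list, abundant throughout, was at 5368 against 3322 CPM. Eosinophil and stromal genes had 0 tested. UMIs of *S100a8*, *S100a9*, *C1qa*, *C1qb*, *C1qc* and *Hbb-bs* reached 10 together in 2 of 126 high-granule and 3 of 253 other cells. Without these cells 26 genes were higher and 77 lower. Doublets were not removed.

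Genes of the sort, of cytokine receptors and of adhesion were listed too, to be read beside the 0.555% of all genes tested that were called higher and the 1.69% called lower. *Pecam1* (CD31), *Ptprc* (CD45) and *Kit* had ratios of 1.13 (0.846 to 1.52), 0.845 (0.692 to 1.03) and 0.721 (0.589 to 0.879), and *Itga2b* (CD41) had 1 UMI in all high-granule cells. Of 19 cytokine receptors, 6 were tested and 0 called. *Flt3*, the receptor of an added cytokine, was at 46.2 against 77.3 CPM and *Csf2rb*, the shared beta chain, at 79.4 against 57.8 CPM. *Csf3r*, the G-CSF receptor, was under the minimum over all gated cells, at 19.9 against 11.3 CPM. Of 14 adhesion and homing genes, 7 were tested and 0 called. *Itgb7* and *Itgal* had ratios of 0.518 and 0.507. *Itgb2*, under the minimum, was at 6.96 against 24.8 CPM.

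A list of surface genes was taken from the population that the study describes in Em-Ex, and so was chosen on these same cells and is not independent of them. Of its 14 genes, 8 were tested with 0 higher and 2 lower, *Eng* and *Slco3a1* (25.6 against 51.7 CPM). *Slc7a11* was at 29.1 against 16.7 CPM and *Itga6* at 23.4 against 19.0 CPM.

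**Figure D4:**
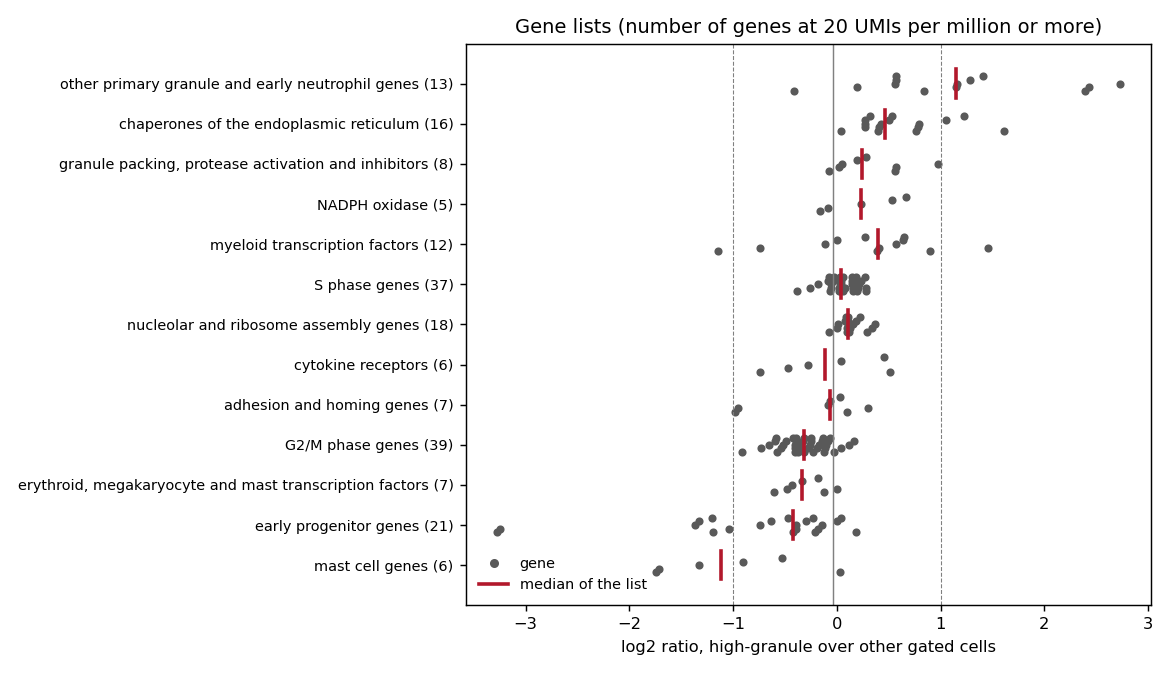
Log2 ratios of the high-granule cells to the other gated cells for the genes of 13 lists at 20 CPM or more, each point a gene and each red bar the median of its list; the grey line is the median of all 4681 genes tested (-0.04) and dashed lines mark 2-fold. The medians run from 1.15 for primary granule and early neutrophil genes to -1.11 for mast cell genes.

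Genes of the cell cycle had no call in either direction. Of 44 S phase genes, 37 were tested and 0 called, with a median log2 ratio of 0.04. Their summed level was 3309 against 3179 CPM, a log2 ratio of 0.06 (0.02 to 0.09), and with no upper limit on genes per cell it was -0.02. Of 50 G2/M phase genes, 39 were tested and 0 called, but 36 had a ratio under 1 and for 26 the interval lay under 1. Their summed level was 5568 against 6676 CPM, a log2 ratio of -0.26 (-0.29 to -0.24), with 5938 CPM in the middle and 7395 CPM in the lowest cells. Its size ranged from -0.41 to -0.11 over the alternatives tried. Nucleolar and ribosome assembly genes (18 tested, 0 called) had a summed ratio of 1.07 and the 82 ribosomal protein genes one of 1.03.

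The high-granule cells were divided, after their values had been seen, into 37 cells with and 89 cells without a *Ctsg* UMI, with median depths of 27076 and 24626 UMIs. The first also had the higher granule scores, with a median of 44.7 against 24.7, and *Ctsg* and *Elane* are part of that score, so the values are a description. *Ly6a* was at 24.7 CPM in the first and 274 CPM in the second, a ratio of 0.0904 (0.0574 to 0.136). It had a UMI in 12 of 37 against 69 of 89 cells and reached at most 2.07 per 10000 UMIs in the first and 19.4 in the second. *Mycn* was at 25.8 against 61.7 CPM. Genes that were higher in cells with *Ctsg* included *Elane* (273 against 133 CPM, with a UMI in 19 of 37 and 14 of 89 cells, and 1 cell without *Ctsg* held 78.4% of the UMIs of its group, which was at 29.1 CPM without it) and *Fkbp11* (84.5 against 32.0 CPM, 2.64-fold, 1.90 to 3.69). *Xbp1* (247 against 127 CPM), *Anxa3* (99.9 against 53.0 CPM), *Sdf2l1* (224 against 125 CPM) and *Cebpa* (57.7 against 33.8 CPM) had ratios of 1.94, 1.89, 1.79 and 1.71.

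*Hp* and *Lyz2* had lower levels in cells with *Ctsg*, at 46.4 against 93.2 CPM and 51.5 against 100 CPM, although *Hp* had a UMI in 51.4% of those cells against 42.7% and *Lyz2* in 62.2% against 36.0%. In the cells without *Ctsg*, 1 cell held 44.1% of the *Lyz2* UMIs, and without it the level was 56.8 CPM. *Irf8* was at 70.0 and 76.3 CPM.

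**Figure D5:**
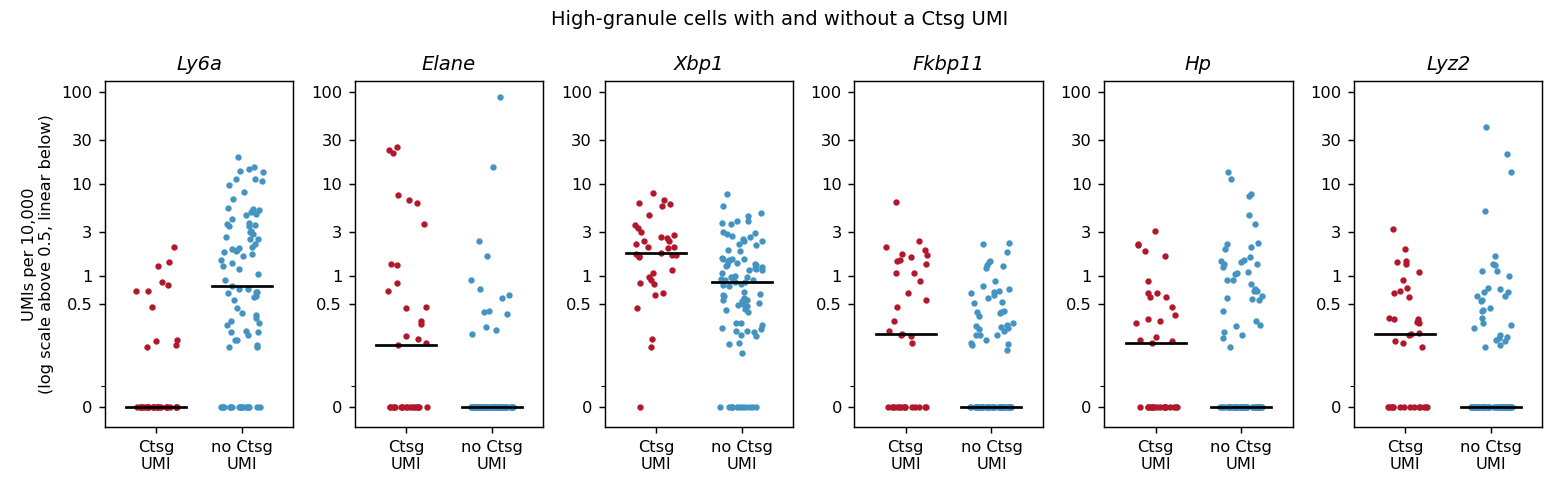
UMIs per 10,000 (log scale above 0.5, linear below) of 6 genes in the 37 high-granule cells with a Ctsg UMI and the 89 without, each point a cell and each black bar a median. Ly6a stays under 2.07 in cells with Ctsg and reaches 19.4 without, while the median of Xbp1 is 1.79 with and 0.878 without.

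YS-Ex held few cells past the same limits. Of 2087 filtered YS-Ex cells, 14 passed the gate and 10 (0.479%, 0.230% to 0.879%) also passed the score limit. *Hoxa9* of the gate is listed at 0 in all YS-Ex barcodes and could not count there, so the gates of the libraries are not alike. The libraries shared 35 barcodes, and 4 of the 10 cells carried a barcode that was also in Em-Ex, 3 of them the barcode of a high-granule cell. These 4 had 3393 to 5805 UMIs, and the 6 with a barcode of their own had 21427 to 34107. The 6 made up 0.287% (0.106% to 0.625%) of YS-Ex cells. In turn, 6 of the 126 high-granule cells and 4 of the 253 others had a barcode also found in YS-Ex, and without shared barcodes 27 genes were higher and 80 lower in place of 26 and 79.

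The 6 YS-Ex cells, pooled, had *Mpo* at 1671 CPM (1479 to 1882) and *Prtn3* at 2614 CPM (2372 to 2874), next to 1455 and 1957 CPM in the high-granule cells, levels that the shared score limit sets. *Elane*, *Ctsg*, *Hp*, *Clec12a*, *Ly6c2*, *Cebpa* and *Hlf* are listed at 0 throughout YS-Ex, where no gene with a UMI in fewer than 30 barcodes is listed above 0, so these zeros do not show absence from the 6 cells. *Irf8* was at 269 CPM (196 to 362) against 74.4 CPM, *Plac8* at 3587 CPM against 1648 CPM and *Bcl11a* at 165 CPM (109 to 240) against 61.7 CPM. *Calr* (1053 CPM), *Ap3s1* (165 CPM) and *Anxa3* (122 CPM, 74.8 to 189) were near or above the levels in the high-granule cells, and *Car2* had 0 UMIs. With 1 library each, the tissue and the library cannot be told apart.

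The high-granule cells were deeper than the other gated cells, with 11490 to 37993 UMIs and a median of 4270 genes against 5441 to 34852 UMIs and a median of 3937 genes. Among gated cells with 10000 to 30000 UMIs, 26 genes were higher and 80 lower. The mitochondrial share was alike, with medians of 2.95% and 3.01%. A UMI of a Y chromosome gene and none of *Xist* was found in 27 of 121 informative high-granule cells (22.3%, 15.2% to 30.8%) and 68 of 233 others (29.2%, 23.4% to 35.5%), intervals that overlap. Cells with a UMI of both kinds were 8 of 121 and 19 of 233. Outside the gate, 3 of 2692 filtered Em-Ex cells passed the score limit.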

How the data were processed

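Droplet RNA-seq was run on sorted cells, 1 library of Em-Ex and 1 of YS-Ex. The counts are whole UMIs that the authors obtained with Cell Ranger 2.0.1 (bcl2fastq 2.19.1.403, mm10 build, per the labels) and deposited without normalization (11691 genes, 3504 Em-Ex and 3037 YS-Ex barcodes, 0 columns left unmapped). The annotation is not given in the sources used here.

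Cells with 1000 to 5000 genes and at most 5% mitochondrial UMIs (13 genes) were kept, 42752370 UMIs in Em-Ex. Gene positions came from GENCODE vM21. Pooled UMIs were divided by the group's total. Intervals were exact Poisson for levels and Clopper-Pearson for shares and ratios. The code for the ratios was checked on simulated counts. The text names the 9 genes of the rule, members of 29 gene lists, the 15 largest and 15 smallest ratios, and genes said to be singled out afterwards, except some that are not reported here. The cells and lists were chosen with earlier results of these data known. Alternatives changed the scaling, minimum level, fold, score, gate and cell filters. Doublets were not removed and free RNA was not subtracted. Python 3.11.15, numpy 2.4.6, scipy 1.17.1, pandas 2.3.3 and matplotlib 3.10.9 were used.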

Additional observations from a re-analysis of the deposited data

How the results depend on the processing

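The number of genes called depended on the minimum level, the fold, the score, the comparison cells and the UMIs kept per cell. There were 26 higher and 79 lower genes as reported, 87 and 308 at a minimum of 5 CPM, 12 and 32 at 50 CPM, and 359 and 890 with no minimum and a prior count of 0.5. At 1.5-fold there were 88 and 231, at 3-fold 9 and 29, and with cells thinned to 4000 UMIs, which keeps fewer counts, 67 and 188. Against the lowest cells alone, 57 genes were higher. A score of *Elane* and *Ctsg* gave 8 and 10, where only 62 gated cells had a UMI of either gene and the rest of the 126 were taken in barcode order. All other settings kept both counts within 1.5 times, those after leaving out the cell with most UMIs of a gene (26 and 71 on one side, 26 and 77 in each group, added after seeing the data) included.

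The high-granule share of 4.10% was 3.09% for the upper 25%, 6.19% for the upper 50% and 3.35% with a gate sum of 10. The summed log2 ratio of S phase genes (0.06) was 0.15 for the upper 25% and also with a gate sum of 10, 0.0946 with the score from thinned counts, 0.00833 at 10000 to 30000 UMIs and -0.0196 with no upper limit on genes. That of G2/M genes (-0.26) stayed under 0 and was -0.17 as a mean over cells and also when thinned, -0.23 after scaling by the median ratio, -0.33 for the upper 25%, -0.34 for the upper 50%, -0.41 against the lowest cells, -0.11 with *Elane* and *Ctsg*, -0.30 with separate parts of each cell's UMIs, -0.15 with no upper limit on genes and -0.32 with a gate sum of 10. The cause was not tested.

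*S100a9* (log2 ratio -1.50), of which 1 cell of each group held 95.2% (high-granule) and 98.8% (other gated) of the UMIs, turned to 7.26 for the upper 50%, 6.72 against the lowest cells, 8.84 with *Elane* and *Ctsg*, 5.21 with a gate sum of 10, 5.17 at 10000 to 30000 UMIs, 4.89 without its top other gated cell and 0.51 without the top cell of each group. *Gimap9*, *Slco3a1*, *Calr*, *Mcpt2*, *Eng*, *Ppic*, *Id2* and *Mcpt1* fell under 2-fold in 11, 9, 6, 6, 5, 5, 4 and 4 of 20 settings, and the other called genes named, *S100a9* apart, in at most 2. *Mcpt1*, *Mcpt2* and *Mcpt4* turned to 0.30, 0.59 and 0.50 with *Elane* and *Ctsg*, and *Gimap9* (-1.01) to 0.0198. No paired analysis was possible because the values come from no test and each condition was 1 library. Depth limits genes under 20 CPM.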

Other observations

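Interferon response genes formed a group among the lower genes that the report did not describe. The list was written after some of its members had been seen among the smallest ratios, so its counts are a description. Of 48 genes, 47 were in the table and 27 reached 20 CPM, of which 0 were higher, 11 were at least 2-fold lower (1.69% of all genes tested were) and 26 had a ratio under 1, with a median log2 ratio of -0.93 beside -0.04 for all genes tested. *Rsad2* (4.43 against 43.4 CPM), *Ifit1* (12.0 against 39.6 CPM), *Ifi27l2a* (72.5 against 229 CPM) and *Isg20* (23.7 against 59.4 CPM) were among the lower ones. *Bst2* and *Psmb8*, at 311 and 307 CPM in the high-granule cells, had ratios of 0.942 and 0.894, and among the 27 genes *Gbp7* alone had a ratio over 1, 1.48 (1.13 to 1.94).

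The Gimap genes, a family of GTPases studied mostly in lymphocytes and clustered in the genome, were also lower, and were singled out after their values were seen. All 7 in the table had a ratio under 1, and the 4 that reached 20 CPM passed 2-fold, although *Gimap9* fell under it in 11 of 20 other settings. *Gimap6* was at 50.6 against 184 CPM, *Gimap1* at 52.2 against 133 CPM, *Gimap5* at 12.3 against 41.3 CPM and *Gimap9* at 25.6 against 51.7 CPM. *Gimap6* had a UMI in 61.1% of the high-granule and 88.1% of the other gated cells, in 15.1% and 45.5% at 4000 UMIs per cell, and in 4.16% of the high-*Cpa3* cells at that depth. The summed level of the family was 145 against 467 CPM, a ratio of 0.310 (0.280 to 0.343).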
